A study of Homo sapiens with 10 samples.

Results

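The genes described here are TP63 and TP73, the relatives of the gene for p53, together with MDM2, MDM4 and PPM1D, whose products hold p53 in check. They were chosen by gene symbol, and all 5 were present in both count tables, among 26256 genes in the table of untreated cells and 55736 in the table of the drug experiment. RNA-seq was read in MCF10A cells, a nontransformed, immortalized human mammary epithelial line (n = 2), and in G12V cells (n = 2), which are MCF10A cells given the G12V HRas oncogene in a viral hygromycin vector, with a GFP vector transduced alongside. In the second experiment parental MCF10A cells received 10 µM Nutlin-3a (n = 3) or the vehicle DMSO (n = 3) for 4 h. The promoter that drives HRas and the clonality of the G12V cells are not given in the sources used here.

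Total counts per library ran from 21538593 to 23683975 in the untreated table and from 15453226 to 17378734 in the drug experiment. HRAS had 1598 and 1496 reads in MCF10A and 14753 and 11542 in G12V libraries, higher in both. Of 7 epithelial markers, all were read in both experiments, and 6 of them were lower in G12V cells, where their summed level was 1286 to 1606 CPM (reads scaled to a common library size) against 7233 to 9077 CPM in MCF10A. It ran from 3931 to 6732 CPM in the drug experiment. Of 8 markers of immune, endothelial and fibroblast cells, the pan-leukocyte gene PTPRC, the endothelial gene VWF and the fibroblast collagen COL3A1 had between 0 and 4 reads in every library. The list is not absent, since 5 of the 8 passed the filter on low counts in the untreated libraries and 2 in the drug experiment. Those 5 include the endothelial gene PECAM1 and the mesenchymal gene PDGFRB. The fibroblast genes DCN and COL1A1 were read. DCN was at 72.3 ± 52.0 CPM with DMSO and 88.8 ± 65.6 CPM with Nutlin-3a (SD, n = 3). COL1A1 was at 8.70 CPM in MCF10A, 3.94 CPM in G12V, 10.6 CPM with DMSO and 10.0 CPM with Nutlin-3a. The summed level of the list was 51.4 to 79.9 CPM in MCF10A and 93.1 to 134 CPM in G12V. It was 24.8 to 148 CPM in the drug experiment, where the sum covers 7 of the 8 markers. The lysosomal protein gene CD68 was higher in G12V cells (log2 fold change 2.17, adjusted p = 0.0155, edgeR). CDKN2A, which encodes ARF, the inhibitor of MDM2, had 0 reads in all 10 libraries, which at the smallest library allows a level of up to 0.194 CPM (3 reads).

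p53 is kept scarce by a feedback loop. MDM2 is a ubiquitin ligase that binds the activation domain of p53 and sends it to the proteasome, and p53 in turn switches on the MDM2 gene. MDM4 is a relative of MDM2 that masks the same domain and pairs with MDM2, and PPM1D is a phosphatase, also a p53 target, that removes activating phosphates from p53 and from the kinases that signal DNA damage. Nutlin-3a fills the pocket of MDM2 that p53 would occupy, so that p53 accumulates without DNA damage. p63 and p73 share the DNA-binding domain of p53. In breast and skin a short form of p63 without the full activation domain marks the basal layer and maintains it, and p73 acts in development, in ciliated epithelium and in some stress responses. Both genes make forms with and without the activation domain from separate start sites, and counts per gene cannot separate these forms.

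Promoter sequences are shown because the gene with the highest rise among the 5 has a well-known p53-responsive internal start. RefSeq start windows (GRCh38.p14; 250 bases before to 50 after each start) matched all 5 genes, with 10 windows in all, 3 for TP73, 4 for MDM2 and 1 each for TP63, MDM4 and PPM1D. Each window was searched for the p53 consensus element, 2 adjacent copies of its 10-letter unit with no spacer. The element reads the same on both strands. With up to 3 mismatches it was found in 3 of the 10 windows, and in 5.20% of all 35116 windows of the same length. With up to 2 mismatches the share of all windows was 0.649%. The sequences below run 5′ to 3′ on the plus strand up to the first annotated exon base, every one was found at a single place on its chromosome in hg19, and capitals mark the matches.
MDM2 internal promoter: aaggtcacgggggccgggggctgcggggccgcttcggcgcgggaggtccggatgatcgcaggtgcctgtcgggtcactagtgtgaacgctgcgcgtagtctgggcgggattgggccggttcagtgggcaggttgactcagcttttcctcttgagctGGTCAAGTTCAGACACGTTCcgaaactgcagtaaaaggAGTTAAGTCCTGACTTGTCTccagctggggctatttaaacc
MDM2 upstream promoter: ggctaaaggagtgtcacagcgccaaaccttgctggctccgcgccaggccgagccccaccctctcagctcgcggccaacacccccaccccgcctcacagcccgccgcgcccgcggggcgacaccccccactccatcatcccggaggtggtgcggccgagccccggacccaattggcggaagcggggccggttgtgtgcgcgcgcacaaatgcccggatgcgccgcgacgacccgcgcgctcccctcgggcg
TP73 internal promoter: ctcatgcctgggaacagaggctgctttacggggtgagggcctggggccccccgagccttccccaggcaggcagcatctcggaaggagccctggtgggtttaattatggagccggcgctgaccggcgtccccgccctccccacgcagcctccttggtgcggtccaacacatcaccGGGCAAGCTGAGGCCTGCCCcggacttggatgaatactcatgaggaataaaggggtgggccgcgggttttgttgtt
PPM1D promoter: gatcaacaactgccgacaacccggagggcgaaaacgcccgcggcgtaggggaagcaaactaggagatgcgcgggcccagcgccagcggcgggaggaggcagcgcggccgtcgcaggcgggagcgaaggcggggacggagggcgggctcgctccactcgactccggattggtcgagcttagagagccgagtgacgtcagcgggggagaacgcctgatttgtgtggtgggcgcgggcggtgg
The MDM2 internal promoter (chr12:69202547-69202781, hg19) lies in the first intron of transcripts from the upstream start. It held a match with 2 mismatches that began 94 bases before the internal start and another with 3 mismatches that began 56 bases before it. The same pair lay in a second RefSeq window whose start is a few bases away, so the windows of MDM2 are not separate sites. The MDM2 upstream promoter (chr12:69201702-69201951) came no closer than 5 mismatches. The TP73 internal promoter (chr1:3606986-3607235), inside the gene, held a match with 2 mismatches that began 76 bases before the start. The PPM1D window (chr17:58677304-58677543) came no closer than 4 mismatches, and the windows of TP63 and MDM4 came no closer than 4 and 5. A match is a match of letters only.

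In G12V cells both relatives of p53 were almost silent while the 3 regulators were not called. Of the 5 genes, 0 were higher and 2 were lower. Genes called differentially expressed (DE) have an adjusted p under 0.05 in edgeR's quasi-likelihood test and an absolute log2 fold change above 0.5. Among all 14376 genes tested 5.01% were DE and higher and 5.95% were DE and lower. TP63 and TP73 are the lower genes. MDM4 was the single gene of the 5 with an unadjusted p under 0.05 that was not DE, and neither DESeq2 nor edgeR's exact test called any of the 5 higher. Groups did not overlap for 3 of the 5 genes, against 54.8% of all genes tested.

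**Figure D1:**
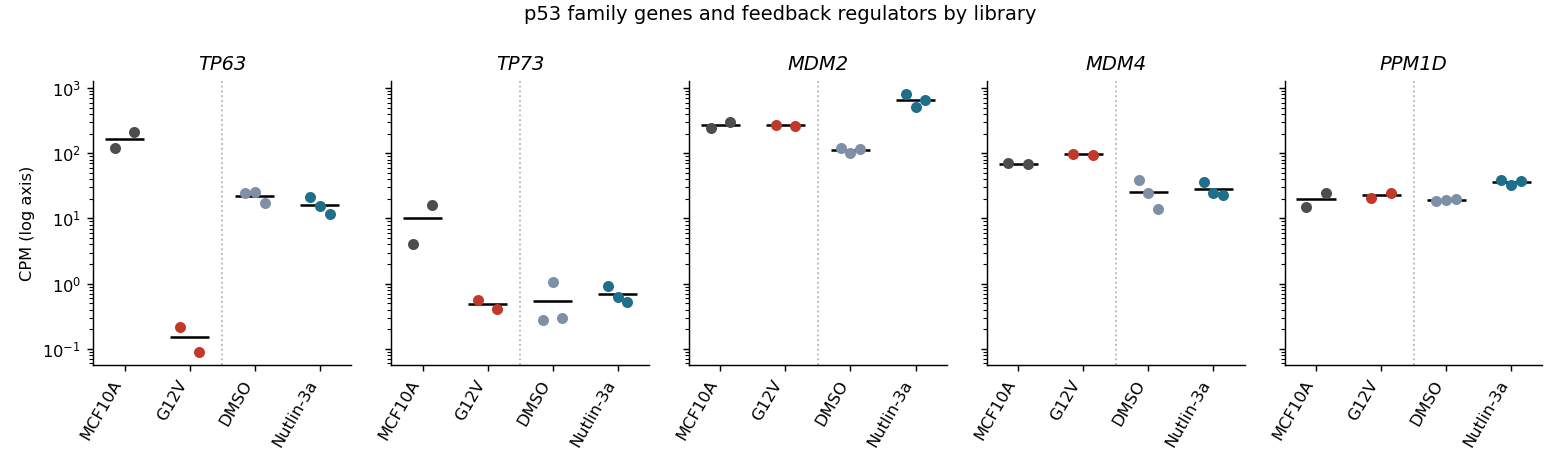
Level of each of the 5 genes in every library (points) with the group mean (line), in CPM on a log axis, with the untreated table left of the dotted line and the drug experiment right of it. TP63 and TP73 sit lower in both G12V libraries than in both MCF10A libraries, and MDM2 and PPM1D sit higher in all 3 Nutlin-3a libraries than in all 3 DMSO libraries.

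TP63 (chr3:189349216-189615068, hg19, plus strand) had 2627 and 4854 reads in MCF10A and 5 and 2 reads in G12V libraries. These are 167 ± 66.7 CPM and 0.151 ± 0.0881 CPM (SD, n = 2). The MCF10A libraries differed among themselves, but both stood far above both G12V libraries. The log2 fold change was -10.04 (SE 0.53, adjusted p = 7.88e-04, edgeR). Pooled over the libraries of each group, MCF10A cells had 1095 times the rate of G12V cells, with a 95% exact interval from 531 to 2725 that covers counting error only. It was the 13th deepest fall of 14376 genes. Without MCF10A replicate 1 the log2 fold change was -10.38 and the adjusted p was 0.0502 (edgeR). In that fit 0 genes of the whole table were DE, with 2830 genes at an unadjusted p under 0.05. In bulk RNA, fewer cells that express a gene and less RNA per cell cannot be told apart.

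TP73 (chr1:3569129-3652765, plus strand) was read at a lower level in MCF10A, with 90 and 366 reads, and had 13 and 9 reads in G12V libraries. The means were 10.1 ± 8.51 CPM and 0.479 ± 0.109 CPM (SD, n = 2). The groups did not overlap, but replicate 2 of MCF10A stood well above replicate 1. The log2 fold change was -4.38 (SE 0.78, adjusted p = 0.0206, edgeR), and the pooled rates differed 21.2-fold (95% exact interval 13.9 to 34.2, counting error only). The omission of MCF10A replicate 1 moved the log2 fold change to -5.03 and the adjusted p to 0.0658, and that of MCF10A replicate 2 moved it to -3.08 (adjusted p = 0.00845, edgeR). In GENCODE 633 exonic bases of TP73, 9.35% of them, are shared with the antisense gene TP73-AS1. The library kit as named in the methods does not mark strand, so reads over these bases cannot be assigned. TP73-AS1 itself had 602 and 588 reads in MCF10A and 407 and 348 in G12V libraries, a log2 fold change of -0.69 that did not pass (adjusted p = 0.102).

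MDM2 (chr12:69201952-69239324, plus strand) had 5386 and 6974 reads in MCF10A and 6415 and 5888 in G12V libraries. Both G12V libraries lay between the MCF10A libraries. The means were 276 ± 44.1 CPM and 268 ± 8.25 CPM (SD, n = 2). The groups differed by -0.04 on the log2 scale (SE 0.21, adjusted p = 0.941, edgeR). Leaving out MCF10A replicate 2 turned it to 0.13.

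MDM4 (chr1:204485507-204527248, plus strand) had 1554 and 1558 reads in MCF10A and 2291 and 2127 in G12V libraries. Both G12V libraries were above both MCF10A libraries, at 96.4 ± 2.18 CPM against 69.6 ± 1.42 CPM (SD, n = 2). The log2 fold change of 0.47 (SE 0.16) had an unadjusted p of 0.0288 and an adjusted p of 0.138 (edgeR), so MDM4 was not DE.

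PPM1D (chr17:58677544-58743640, plus strand) had 333 and 553 reads in MCF10A and 482 and 556 in G12V libraries. The groups overlapped, at 19.7 ± 6.52 CPM and 22.7 ± 2.96 CPM (SD, n = 2). Their log2 fold change was 0.20 (SE 0.30, adjusted p = 0.748, edgeR), and it was -0.081 without MCF10A replicate 1.

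MDM2 and MDM4 proteins act together, so their reads were also set against each other within each library, a measure that needs no scaling between libraries but is not a ratio of molecules, since the transcripts differ in length. There were 3.47 and 4.48 MDM2 reads per MDM4 read in MCF10A and 2.80 and 2.77 in G12V libraries. The log2 ratio differed by -0.50 between the groups (two-sided exact permutation p = 0.333, the smallest that 2 against 2 libraries allow). The G12V values did not overlap with those of MCF10A.

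Among the genes that p63 is known to switch on in basal epithelium, such as keratins and adhesion genes, 14 of 18 were DE and lower in G12V cells, and 0 of 18 were DE and higher. Over all 14376 genes tested, 5.95% were DE and lower, 5.01% were DE and higher, and 7174 genes had a log2 fold change above 0. All 18 had a log2 fold change below 0 (17 of 18 without MCF10A replicate 2), with a median of -2.75, against a median of -0.0011 over all 14376 genes tested. ZNF750, a regulator of epidermal differentiation singled out after its values were seen, had 79 reads in MCF10A and 0 in G12V libraries together, at least 27.0-fold lower when set against 3 reads over the group, and the median was the same with ZNF750 at that bound. KRT5 and KRT14 are also on the list of epithelial markers, and the summed level of epithelial markers given above fell with them. Its part in the result was not tested. Without MCF10A replicate 1, 0 of the 18 were DE, with 15 at an unadjusted p under 0.05.

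KRT14, a keratin of the basal layer, had 8848 and 9593 reads in MCF10A and 2 and 3 reads in G12V libraries. The pooled rate was 3779 times higher in MCF10A (95% exact interval 1619 to 11640, counting error only; adjusted p = 3.37e-04, edgeR). FAT2, a cadherin-like adhesion protein, went from 3055 and 3890 reads to 9 and 12 (log2 fold change -8.38, SE 0.30, adjusted p = 3.75e-04). RIPK4, a kinase of epidermal differentiation, went from 3313 and 3668 reads to 292 and 321 (log2 fold change -3.54, SE 0.19, adjusted p = 7.88e-04). All 3 genes had no overlap between the groups, and KRT14 and FAT2 were near the bottom of detection in G12V cells, as TP63 was.

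**Figure D2:**
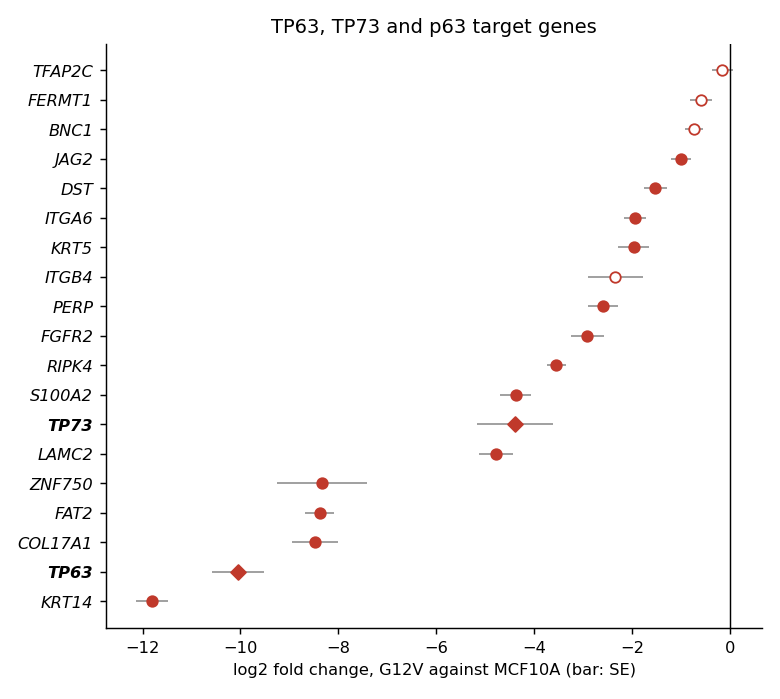
Log2 fold change of G12V against MCF10A cells (x axis) with its SE (bars) for TP63 and TP73 (diamonds) and 17 of the p63 target genes (circles), filled where the gene was DE. Every point lies below 0, and 13 of the 17 targets are filled.

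Of 8 partners and modifiers of p63 and p73, 1 was DE and higher and 0 were DE and lower, with 5 of the 8 at an unadjusted p under 0.05, against 3676 of all 14376 genes. Over all these genes the shares were 5.01% DE and higher and 5.95% DE and lower. DESeq2 and the exact test each called 2 of the 8 lower. The higher gene was ITCH, a ubiquitin ligase that targets p63 and p73 for degradation. It had 2950 and 2957 reads in MCF10A and 27812 and 29593 in G12V libraries, 9.49-fold higher (log2 fold change 3.25, SE 0.24, adjusted p = 0.00159, edgeR). PPP1R13L, which encodes the inhibitory ASPP protein, was at -0.98 on the log2 scale (SE 0.24, adjusted p = 0.0557).

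Of all 14376 genes tested, 5.01% were DE and higher and 5.95% were DE and lower in G12V cells. Of 30 p53 targets outside the 5 genes, 1 was DE and higher and 2 were DE and lower. Their median log2 fold change was -0.07, and 14 of the 30 were above 0. The median turned to 0.18 without MCF10A replicate 2 and to 0.15 without G12V replicate 1. PMAIP1, the pro-apoptotic NOXA gene, had 224 and 291 reads in MCF10A and 545 and 678 in G12V libraries (log2 fold change 1.22, SE 0.26, adjusted p = 0.0365, edgeR), and this call was lost when either MCF10A library or G12V replicate 2 was left out. SFN, an epithelial 14-3-3 protein that holds cells before mitosis, had 17057 and 14301 reads in MCF10A and 3607 and 3185 in G12V libraries (log2 fold change -2.25, SE 0.23, adjusted p = 0.00418). TP53I3, a quinone oxidoreductase, fell by 1.03 on the log2 scale (SE 0.20, adjusted p = 0.0251). Without MCF10A replicate 1, 0 of the 30 were DE. With DESeq2 and with edgeR's exact test 7 of the 30 were DE, 4 higher and 3 lower.

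Of 12 tested partners of MDM2 and MDM4 and other p53 ligases, 0 were DE in edgeR, 1 had an unadjusted p under 0.05, and DESeq2 and the exact test also called 0. USP2, a deubiquitinase of MDM2, had the highest log2 fold change at 0.77 (SE 0.43, adjusted p = 0.341). UBE4B, a ubiquitin chain-elongation factor, had the lowest at -0.67 (SE 0.23, adjusted p = 0.131). Of 11 p53 kinases and PPM1D substrates, 1 was DE and higher and 0 were DE and lower. Over all 14376 genes tested the shares were 5.01% and 5.95%. HIPK2, a kinase that phosphorylates p53, had 3812 and 7090 reads in MCF10A and 13482 and 18130 in G12V libraries (log2 fold change 1.51, SE 0.35, adjusted p = 0.0476), a call that was lost with relative log expression factors, with no filter on low counts, and without MCF10A replicate 1 or G12V replicate 2. UNG, the uracil-DNA glycosylase, had the lowest value of that list at -0.59 (SE 0.29, adjusted p = 0.278).

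After 4 h of Nutlin-3a, MDM2 and PPM1D rose and the other genes of the 5 were not called. Of the 4 genes tested, 2 were DE and higher and 0 were DE and lower. In this fit, which has no block, 0 were lower at an unadjusted p under 0.05. DESeq2 and the exact test, also without a block, called 0 lower. Of all 13529 genes tested 0.155% were DE and higher and 0.0148% were DE and lower, in numbers 21 and 2. TP73 had too few reads to pass the filter and was not tested in this fit. Groups did not overlap for 2 of the 4, against 8.07% of all genes tested. Libraries of the same number in the 2 treatments deviated together, and a block for that number in the model called 0.702% of the genes tested higher and 0.517% lower, and the same 2 of the 4 genes, MDM2 and PPM1D, were DE in it.

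MDM2 had 2203, 1657 and 1970 reads in DMSO libraries and 13214, 8211 and 9813 in Nutlin-3a libraries. Every treated library stood far above every DMSO library. The mean level was 113 ± 10.3 CPM with DMSO and 656 ± 153 CPM with Nutlin-3a (SD, n = 3), 5.82-fold higher. The log2 fold change of 2.54 (SE 0.18, adjusted p = 0.00133, edgeR) was the 8th highest of 13529 genes. Within the pairs of equal number the log2 differences were 2.73, 2.32 and 2.48. MDM2 stayed DE without any 1 library (log2 fold change 2.36 to 2.69, adjusted p 0.00237 to 0.0182).

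PPM1D had 338, 315 and 344 reads in DMSO libraries and 631, 532 and 576 in Nutlin-3a libraries. All 3 treated libraries were above all DMSO libraries, and the spread within each group was small. The means were 19.4 ± 0.687 CPM and 36.6 ± 3.15 CPM (SD, n = 3). On the log2 scale PPM1D rose by 0.92 (SE 0.12), the 86th highest value, with an adjusted p of 0.0303 in edgeR. It was 1.04, 0.76 and 0.90 within the pairs, and the adjusted p of the block fit was 2.87e-04. In edgeR without a block, the call was lost whenever any 1 library was left out, at log2 fold changes of 0.87 to 0.99 and adjusted p of 0.0816 to 0.222. Omissions were not run with the block.

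MDM4 had 702, 397 and 242 reads in DMSO libraries and 598, 403 and 343 in Nutlin-3a libraries. The Nutlin-3a libraries lay within the range of the DMSO libraries. The means were 25.8 ± 12.4 CPM and 28.1 ± 7.63 CPM (SD, n = 3). They differed by 0.13 on the log2 scale (SE 0.34), with an adjusted p above 0.99 in edgeR. The direction turned to -0.17 without DMSO replicate 3 and to -0.12 without Nutlin-3a replicate 1. The within-pair differences were -0.08, 0.04 and 0.66.

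There were 3.14, 4.17 and 8.14 MDM2 reads per MDM4 read in DMSO libraries and 22.1, 20.4 and 28.6 in Nutlin-3a libraries. The groups did not overlap, although DMSO replicate 3, the library with the fewest MDM4 reads, stood apart from the other DMSO libraries. The ratio was 4.94-fold higher with Nutlin-3a, a log2 difference of 2.31 (two-sided exact permutation p = 0.1, the smallest that 3 against 3 libraries allow).

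**Figure D3:**
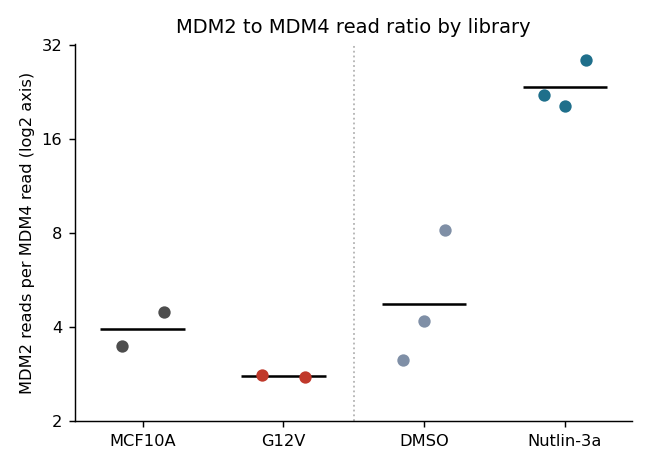
MDM2 reads per MDM4 read in every library (points, log2 axis) with the geometric mean of each group (line). The 3 Nutlin-3a libraries lie between 20.4 and 28.6, above the 3 DMSO libraries, and both G12V libraries lie below both MCF10A libraries.

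TP63 had 445, 411 and 292 reads in DMSO libraries and 348, 249 and 179 in Nutlin-3a libraries. The groups overlapped, but the treated library was the lower one in 3 of 3 pairs, with log2 differences of -0.20, -0.69 and -0.51. The means were 22.3 ± 4.56 CPM and 16.2 ± 4.87 CPM (SD, n = 3). The log2 fold change was -0.46 (SE 0.24), with an unadjusted p of 0.0931 and an adjusted p above 0.99 in edgeR. With the replicate block it was -0.47 (unadjusted p = 0.00172, adjusted p = 0.0731, edgeR), still short of the threshold. In that fit 1584 of all 13529 genes had an unadjusted p under 0.05.

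TP73 had 5, 17 and 5 reads in DMSO libraries and 15, 10 and 8 in Nutlin-3a libraries, too few for the filter. The groups overlapped. The means were 0.537 ± 0.438 CPM and 0.69 ± 0.208 CPM (SD, n = 3), and the pooled rate with DMSO was 0.755 of that with Nutlin-3a (95% exact interval 0.437 to 1.30, counting error only). The interval leaves out the spread between libraries and is not a limit of detection. In edgeR with no filter on low counts TP73 was not DE (adjusted p = 0.966).

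The levels of TP63, TP73, MDM2 and MDM4 in parental cells were not alike in the separate experiments. TP63 was at 167 CPM in untreated MCF10A and at 22.3 CPM with DMSO, and TP73 was at 10.1 and 0.537 CPM. MDM2 was at 276 and 113 CPM and MDM4 at 69.6 and 25.8 CPM, while PPM1D was at 19.7 and 19.4 CPM. The tables were counted on different annotations and normalized separately, so these values stand side by side with no test.

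All 30 of the other p53 targets had a log2 fold change above 0 after Nutlin-3a, and 28 to 30 did when 1 library was left out, with a median of 0.88 against 0.0066 over all 13529 genes. Among those 13529 genes 7012 were above 0. Of the 30, 8 were DE and higher and 0 were DE and lower, against 0.155% and 0.0148% of all genes tested. The block fit called 23 of the 30 higher, against 0.702% of all genes tested. BTG2, an antiproliferative gene, had 503, 549 and 621 reads with DMSO and 3644, 3573 and 3955 with Nutlin-3a (log2 fold change 2.85, SE 0.14, adjusted p = 2.56e-04, edgeR). GDF15, a stress-induced secreted factor, rose by 2.63 on the log2 scale (SE 0.15, adjusted p = 5.16e-04). CDKN1A, the p21 inhibitor of cyclin-dependent kinases, went from 654 ± 26.7 CPM to 2916 ± 375 CPM (SD, n = 3; log2 fold change 2.16, SE 0.13, adjusted p = 5.16e-04). SESN1, a stress-induced regulator of growth signalling, rose by 1.63 on the log2 scale (SE 0.11, adjusted p = 0.00131). The rise of MDM2 stood between those of GDF15 and CDKN1A, and that of PPM1D stood near the median of the list.

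**Figure D4:**
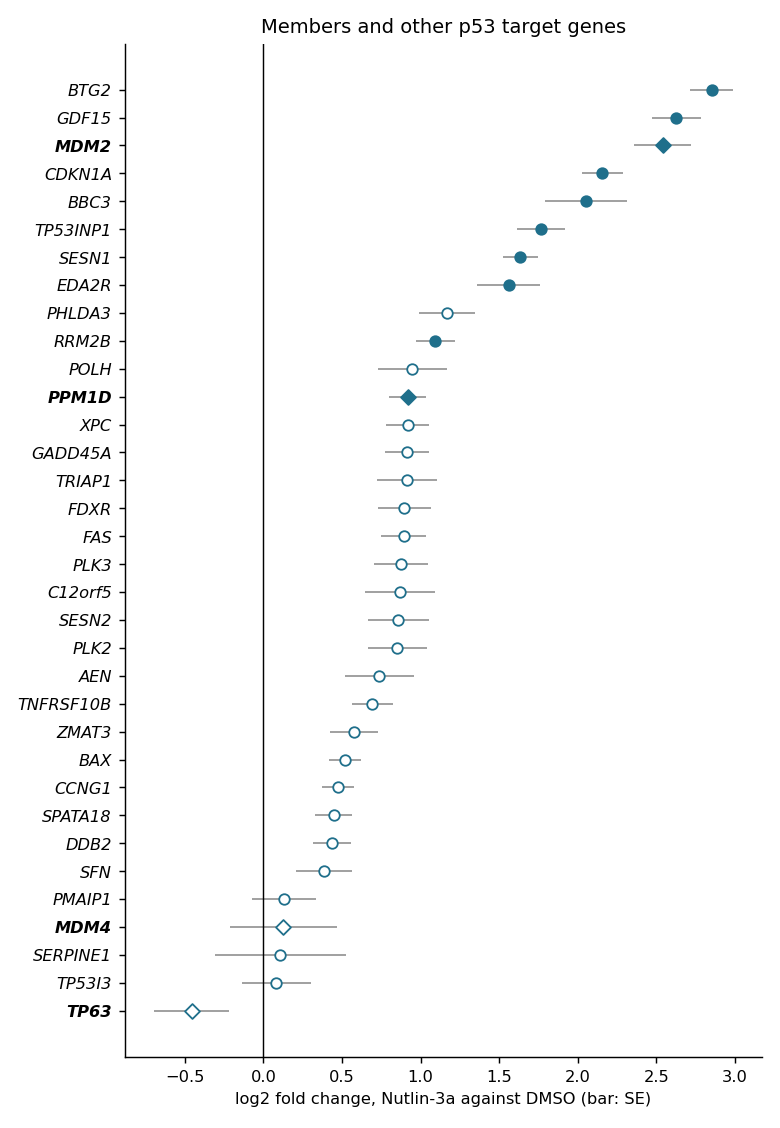
Log2 fold change of Nutlin-3a against DMSO (x axis) with its SE (bars) for MDM2, PPM1D, MDM4 and TP63 (diamonds) and 30 other p53 targets (circles), filled where the gene was DE in the fit without a block. All 30 targets lie above 0 and 8 of them are filled, MDM2 and PPM1D are filled, and MDM4 and TP63 are open.

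The other lists held no DE gene after Nutlin-3a in edgeR, DESeq2 or the exact test. In the edgeR fit without a block, 463 of all 13529 genes tested had an unadjusted p under 0.05. Of 11 partners of MDM2 and MDM4 and other p53 ligases, 0 had an unadjusted p under 0.05, with values from -0.14 (SE 0.10) for USP10, a p53 deubiquitinase, to 0.19 (SE 0.21) for HUWE1, a p53 ligase. Of 11 p53 kinases and PPM1D substrates, 2 had an unadjusted p under 0.05, and values ran from -0.33 (SE 0.12) for the p53 kinase DYRK2 to 0.27 (SE 0.12) for ATM, the kinase of DNA breaks. Of 8 cofactors and ligases of p63 and p73, 1 had an unadjusted p under 0.05, from -0.24 (SE 0.10) for PPP1R13L to 0.21 (SE 0.14) for the ubiquitin ligase WWP1. Of 17 tested p63 targets, 1 had an unadjusted p under 0.05, and their median was 0.03, with TFAP2C, a transcription factor of ectoderm, lowest at -0.34 (SE 0.30) and FGFR2, a growth factor receptor, highest at 0.41 (SE 0.23). These are log2 fold changes of the edgeR fit without a block, with adjusted p above 0.99. With the replicate block the 4 lists also held 0 DE genes. In that edgeR fit 0 of the 11 partners, 5 of the 11 kinases and substrates, 2 of the 8 cofactors and 4 of the 17 p63 targets had an unadjusted p under 0.05. Over all 13529 genes it was 1584. The adjusted p there was 0.147 for DYRK2, 0.146 for FGFR2, 0.185 for TFAP2C and 0.204 for PPP1R13L.

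Genes within 100 kb of the 5 genes were read to see whether a change was shared along the chromosome. Among untreated libraries 14 neighbours were tested, of which 3 were DE and lower, against 5.95% of all genes tested, and 0 were DE and higher. P3H2, a collagen prolyl hydroxylase gene 59.4 kb from TP63 on the opposite strand, had 1535 and 1954 reads in MCF10A and 414 and 769 in G12V libraries (log2 fold change -1.58, SE 0.34, adjusted p = 0.037, edgeR). MEGF6, 41.1 kb from TP73, had 2138 and 2144 reads in MCF10A and 112 and 50 in G12V libraries (log2 fold change -4.77, SE 0.39, adjusted p = 0.00229). TPRG1L, 22.4 kb from TP73, had 1176 and 1772 reads in MCF10A and 541 and 562 in G12V libraries (log2 fold change -1.45, SE 0.25, adjusted p = 0.018). WRAP73, which lies 2.46 kb from TP73, was at -0.06 (SE 0.21, adjusted p = 0.899). Also near TP73, LRRC47 was at -0.07 and SMIM1 at 0.18. Beside the regulators, PIK3C2B near MDM4 was at 1.16 (adjusted p = 0.0784), CPM, the carboxypeptidase M gene near MDM2, at -1.27 (adjusted p = 0.071), NUP107 and SLC35E3 near MDM2 at 0.14 and -0.38, and APPBP2 and BCAS3 near PPM1D at 0.48 and -0.56.

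In the drug experiment 12 neighbours were tested, and 1 was DE and higher, against 0.155% of all genes tested. The carboxypeptidase M gene CPM, 5.63 kb from the end of MDM2 and on the opposite strand, had 37, 31 and 21 reads with DMSO and 300, 168 and 164 with Nutlin-3a. All treated libraries were above all DMSO libraries (log2 fold change 2.93, SE 0.31, adjusted p = 0.0145, edgeR). In GENCODE 133 exonic bases of MDM2, 1.60% of them, lie on exons of CPM, and a kit that does not mark strand cannot tell their reads apart. Another 2 genes share more exonic bases with MDM2. They are ENSG00000257181 on the opposite strand (785 bases, 9.45%) and ENSG00000256664 on the same strand (439 bases, 5.29%). The share of CPM reads from the bases that CPM shares with MDM2 was not tested. Of the 11 other neighbours, log2 fold changes ran from -0.11 for LRRC47 to 0.43 for MEGF6, and WRAP73, TP73-AS1, TPRG1L, NUP107, SLC35E3, PIK3C2B, APPBP2 and BCAS3 lay between them. NUP107 and SLC35E3, the other tested neighbours of MDM2, were at -0.04 (SE 0.12) and 0.04 (SE 0.13). MIR944, inside TP63, had 0 reads in every library.

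The genes whose levels across libraries were nearest to each of the 5 are given as a description, by the Euclidean distance between log2 CPM values centred on their mean. Over the 4 untreated libraries the nearest to TP63 were COL17A1, a hemidesmosome collagen, at a distance of 0.459, TRIM29 at 0.497 and the epithelial cadherin CDH1 at 0.536. CDH1 had 4390 and 5406 reads in MCF10A and 10 and 12 in G12V libraries. The nearest to TP73 were ARHGAP25, MYBPC1 and TG, at 0.384 to 0.455. Those nearest to MDM2 were NLE1, KIAA1328 and DGUOK, to MDM4 CDKN2AIPNL, STRADB and ZNF37A, and to PPM1D PLEKHF1, KDM4B and XAF1, with distances from 0.018 to 0.0823. Over the 6 libraries of the drug experiment the nearest to MDM2 were PVRL4, a nectin, at 0.415, the carboxypeptidase M gene at 0.575 and FAM198B at 0.681. The nearest to PPM1D were SGK223, PLEKHG1 and PLEKHF1, at 0.164 to 0.264. Those nearest to TP63 were ESPL1, MEFV and FAM161A, at 0.165 to 0.179, and those nearest to MDM4 were RP11-159D12.2, ZKSCAN3 and CCDC17, at 0.145 to 0.225.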

How the data were processed

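RNA-seq of poly(A)-selected RNA was read in 10 libraries. The authors aligned the reads with TopHat and took counts per gene from HTSeq (hg19, strand setting not given in the sources used here) and deposited raw counts per gene for each library, with no normalization. The 2 count tables use different annotations and were fitted separately. edgeR 4.0.16 in R 4.3.3 (limma 3.58.1 beneath it) filtered genes with filterByExpr, scaled libraries by TMM and applied the quasi-likelihood test with Benjamini-Hochberg adjustment over all genes tested. The DE thresholds are those of the study's Methods. Each SE is the size of the log2 fold change divided by the root of its F value. CPM use TMM-scaled library sizes, and distances between genes add 0.5 CPM before the logarithm. Intervals are exact (Clopper-Pearson) and, like the bound of 3 reads, speak of counting error alone, because the reads carry no molecular identifiers and can be copies of 1 molecule. The fits were tested on simulated data.

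The 5 genes and the gene lists were chosen with earlier results of these data known. In each pathway list, comparison and direction the 4 DE genes with the smallest adjusted p are named, or else the 1 with the largest log2 fold change, with every tested neighbour within 100 kb and the 3 nearest genes in pattern. Lists have no test of their own. Some genes that these rules select are not reported here. RefSeq promoters and GENCODE v44lift37 exons were matched by symbol. The promoters came from GRCh38.p14 and were found in GRCh37 by sequence. Python 3.11.15 with numpy 2.4.6, pandas 2.3.3, scipy 1.17.1 and matplotlib 3.10.9 did these steps.

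Replicates are called biological in the methods. Nothing says more, so p-values measure the spread between these libraries. In the drug experiment libraries of equal number deviated together (r = 0.641, 0.649 and 0.676 over 13529 genes, others -0.499 to -0.206), so the labels' numbers pair them. Also tried were edgeR's exact test, DESeq2 1.42.0, relative log expression, upper-quartile and total-count scaling, other filters, no fold threshold, a prior count of 2, a replicate block and the omission of each library. ATAC-seq, ChIP-seq and 4C were not analysed here.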

Additional observations from a re-analysis of the deposited data

How the results depend on the processing

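With 2 or 3 libraries a group, 1 library can decide a call. Without MCF10A replicate 1, 0 genes were DE between G12V and MCF10A cells (2830 at an unadjusted p under 0.05, edgeR), against 1575. The range over the omissions of 1 library was 0 to 2129 DE genes, -10.78 to -9.56 for TP63 and -5.03 to -3.08 for TP73 (log2 fold changes), 0 to 6 of the p53 targets, 0 to 2 of the p53 kinases and PPM1D substrates, 0 to 2 of the p63 and p73 cofactors and 0 to 14 of the p63 targets. MDM2 ranged from -0.17 to 0.13, turning without MCF10A replicate 2, and PPM1D ranged from -0.081 to 0.58, turning without MCF10A replicate 1. After Nutlin-3a the omissions gave 7 to 11 DE genes in place of 23 and 5 to 6 p53 targets in place of 8. PPM1D ranged from 0.87 to 0.99. For TP73, which was below the filter and had no fit, the log2 ratio of mean CPM ranged from 0.048 to 1.28. MDM4 ranged from -0.17 to 0.55, below 0 when DMSO replicate 3 (-0.17) or Nutlin-3a replicate 1 (-0.12) was left out. The median of the p63 targets there fell below 0 without DMSO replicate 1 (-0.018), without Nutlin-3a replicate 3 (-0.028) and with library totals (-0.0038).

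In the G12V comparison edgeR's exact test called 2536 genes and 7 p53 targets, DESeq2 also 7 p53 targets, and both called 3 of the 8 p63 and p73 cofactors in place of 1. Upper-quartile factors, library totals and a stricter filter, above 1 CPM in 2 or more libraries, called 2 cofactors. Relative log expression factors and no filter called 0 p53 kinases in place of 1. After Nutlin-3a DESeq2 called 91 genes and 21 p53 targets, the exact test 84 and 21, and no filter 99 and 22. The causes of these differences were not tested.

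With the replicate block 165 genes and 23 p53 targets were DE after Nutlin-3a, and it changed no call among the 5 genes. In the untreated table the numbers are shared without a stated pairing, and with 2 pairs the check (r = 0.535) cannot decide. There the block called 4158 genes, 13 p53 targets, 2 p53 kinases, 5 cofactors and 1 partner of MDM2 and MDM4, and it made the neighbours TP73-AS1 (adjusted p = 0.00822), CPM (0.00284) and PIK3C2B (0.00467) DE, while MDM4 reached an adjusted p of 0.0167 (edgeR) but stayed under the fold threshold at 0.47. The block left the mean difference of the MDM2 to MDM4 log2 ratio at -0.50 and 2.31. TP73 could not be fitted after Nutlin-3a under the filters, so no other test or scaling factors were run on it there. The edgeR fit with no filter gave it an adjusted p of 0.966. TP63 in G12V cells and TP73 in the drug experiment rest on few reads, which limits their precision.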
